A study of Mus musculus with 45 samples.

Results

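Cultured mouse hippocampal neurons were driven into synchronous action potential (AP) firing with bicuculline (Bic) for 0.5 h, and 1 arm was harvested there while the other then received tetrodotoxin and NMDA (TTX/NMDA) for a further 0.5 h. The members are the 5 libraries of that short protocol (SP TTX/NMDA) and the 5 libraries of Bic 0.5 h, chosen by their labels and matched by culture preparation, so 10 of the 45 libraries of the series are compared, across all genes. The cells came from the hippocampus of newborn C57BL/6N mice and were treated with cytosine arabinoside to limit dividing cells. They were used on day in vitro 10 to 11 by the labels, and the study's methods give day 11 for sequencing. Bic was applied at 50 µM and stayed in the medium throughout, TTX was added at 1 µM and NMDA at 30 µM. Each culture preparation, the study's replicate, gave 1 library to every arm, and the 5 preparations carry the numbers 1, 3, 6, 7 and 8. The later arm is thus also 0.5 h further from the onset of Bic, and the arms that received TTX alone for those 0.5 h (SP TTX) or no intervention (Bic 1 h) are given beside it.

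Bic blocks GABA-A receptors, which removes inhibition and lets the network fire in bursts. Calcium that enters through synaptic NMDA receptors during such firing switches on immediate early genes such as Fos, Arc and Npas4 within minutes, many of them through CREB, SRF and MEF2. TTX blocks voltage-gated sodium channels and so stops AP firing, whereas NMDA in the bath opens receptors at and outside synapses and overloads neurons with calcium, a standard model of excitotoxicity. Gene activation that is lost under such a stimulus is called transcriptional shut-off. The comparison asks which mRNAs had moved, and in which direction, by the end of the first 0.5 h of that stimulus.

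The libraries held 12338915 to 27638221 counted reads after Bic 0.5 h and 24411692 to 37251209 after SP TTX/NMDA, and the second library of a preparation was 1.16 to 2.24 times as deep as the first. Reads of mitochondrial genes made up 0.716 to 0.982% of counts after Bic 0.5 h and 0.9 to 1.37% after SP TTX/NMDA. Levels are given as CPM, counts relative to library size with TMM factors over the series, and they compare a gene across libraries but not 1 gene with another. Log2 fold changes, their standard errors (SE) and adjusted p-values come from edgeR's quasi-likelihood test with the preparation as a replicate block.

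TTX/NMDA changed a large set of genes by small amounts. Of 16049 genes tested, 2141 were higher and 2766 lower than after Bic 0.5 h at an adjusted p under 0.05, which is 13.3% and 17.2% of genes, or 30.6% together. The median called rise was 0.24 and the median called fall −0.22 on the log2 scale, and the median over all genes tested was 0.02. A log2 change over 1 was reached by 43 genes that rose and 15 that fell, and one over 0.5 by 242 and 193. Of the 4907 called genes, 4086 moved in the called direction in all 5 preparations. Most of these calls need the pairing: without the replicate block, 201 genes were higher and 902 lower (1.31% and 5.89% of 15321 tested), so the share of falls among calls was 81.8% in place of 56.4%. Leaving out preparation 3 or 7 left 1315 or 1284 genes higher.

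**Figure D1:**
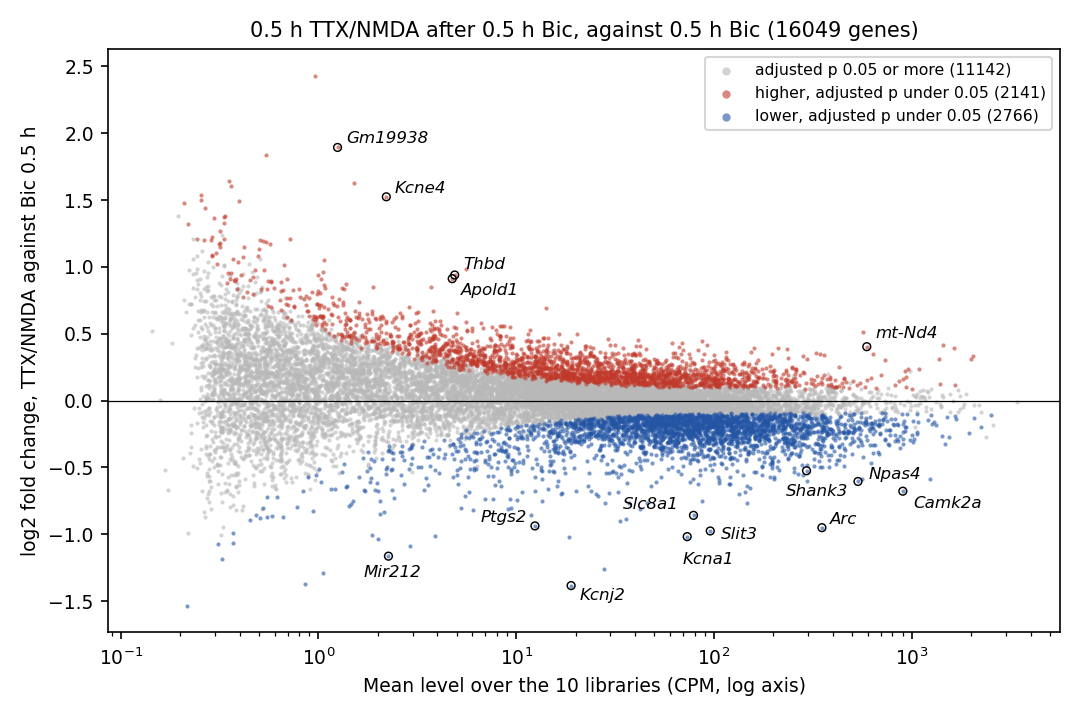
Log2 fold change (SP TTX/NMDA against Bic 0.5 h, y axis) against the mean level over the 10 libraries (CPM, log axis) for the 16049 genes tested; red points are the 2141 genes called higher, blue points the 2766 called lower, grey points the rest, and circles mark genes named in the text. Kcne4 (1.52) is among the large rises and has a mean under 5 CPM in either group, while the falls of Kcnj2, Kcna1, Slit3 and Arc sit further right.

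Immediate early transcription factors were lower as a group. Of 26 tested, 17 fell and 1 rose, with a median log2 fold change of −0.36 beside 0.02 for all genes (without the block, 9 and 0). Npas4, a neuron-specific activity-induced factor, stood at 551, 675, 630, 684 and 692 CPM after Bic 0.5 h in preparations 1, 3, 6, 7 and 8 and at 399, 496, 363, 476 and 390 CPM after SP TTX/NMDA. Every later library lay below every earlier one, and the change was −0.60 ± 0.055, SE, adjusted p = 1.48e-05. Fos, a subunit of the AP-1 factor, was at 426, 560, 556, 557 and 539 CPM and then at 333, 462, 314, 456 and 323 CPM, where the groups overlapped only through the low Bic library of preparation 1 (−0.49 ± 0.072, SE, adjusted p = 0.000277). Egr2, a zinc finger factor, was at 20.5, 34.4, 40.9, 30.8 and 35.6 and then at 15.2, 24.6, 14.7, 21.2 and 22.1 CPM (−0.71 ± 0.11, SE, adjusted p = 0.000376). Egr3 fell by 0.69, Nr4a3 by 0.55, Egr1 by 0.42 and Srf, itself a driver of many of these genes, by 0.40 on the log2 scale. Npas4 and Fos had means of 425 and 378 CPM after SP TTX/NMDA, still above their control means of 47.4 and 36.6 CPM. Not all members moved: Nr4a1, an orphan nuclear receptor, was at 150, 256, 290, 252 and 239 and then 159, 254, 192, 265 and 173 CPM (−0.18 ± 0.086, SE, adjusted p = 0.136), lower in 3 of 5 preparations, and Fosl1, Jund, Maff, Klf2, Klf4, Klf6 and Klf10 also missed the threshold. Ier3 was the member that rose, from 2.2 to 4.27 CPM up to 2.99 to 6.72 CPM (0.57 ± 0.10, SE, adjusted p = 0.000733, adjusted p = 0.168 without the block).

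**Figure D2:**
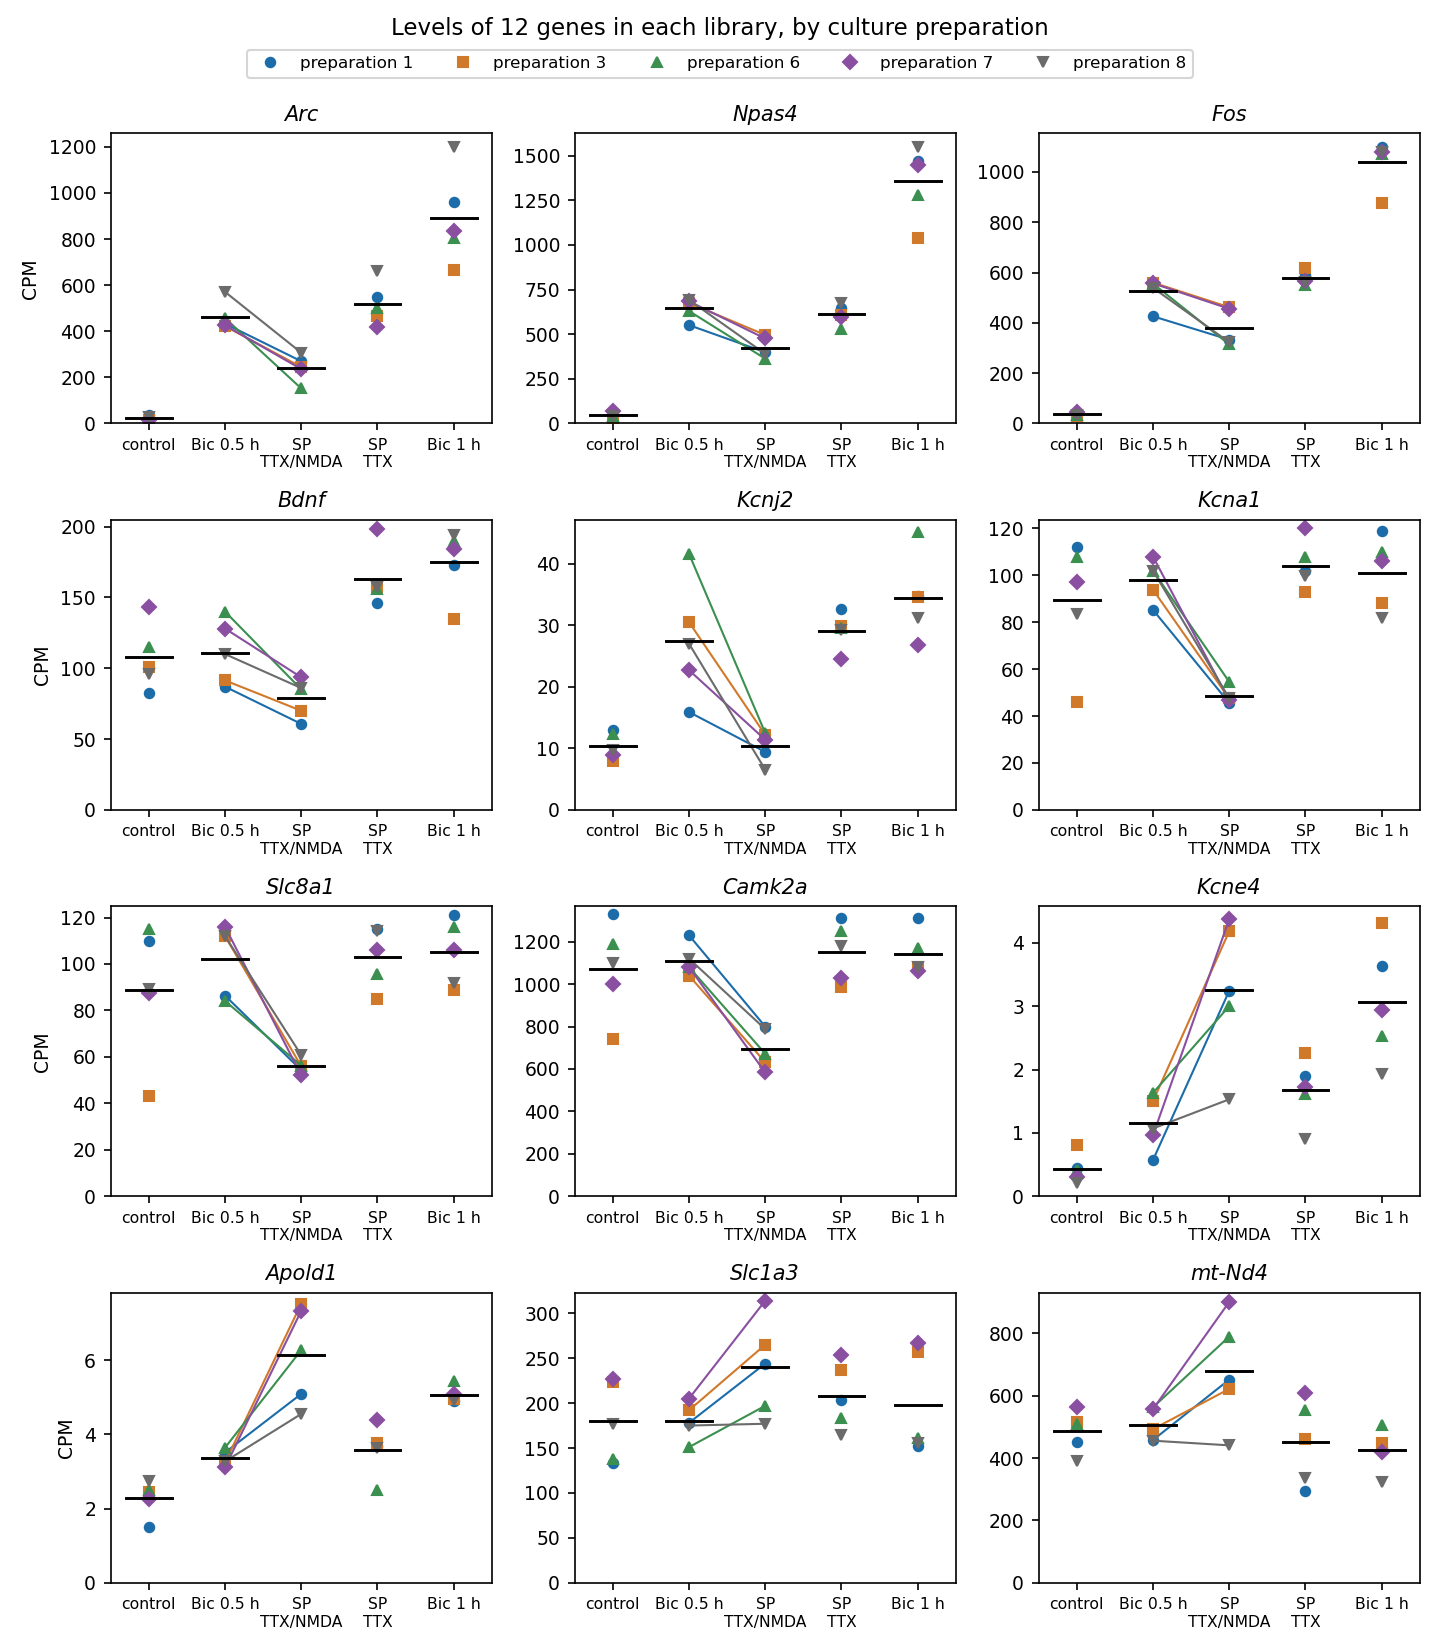
Level (CPM, y axis from 0) of 12 genes in each library of 5 arms (x axis); symbols and colors are the 5 preparations, lines join Bic 0.5 h and SP TTX/NMDA of 1 preparation, and black bars are means of 5. All 5 lines fall for Arc, Npas4, Fos, Bdnf, Kcnj2, Kcna1, Slc8a1 and Camk2a and rise for Kcne4, Apold1 and Slc1a3, whereas mt-Nd4 rises in 4.

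The immediate early effectors, which act at synapses or in signaling, showed 10 falls and 1 rise among 20 tested, with a median of −0.22 (7 and 0 without the block). Arc, which drives removal of AMPA receptors from synapses, was at 433, 422, 457, 426 and 571 CPM after Bic 0.5 h and at 270, 245, 152, 236 and 307 CPM after SP TTX/NMDA. The groups did not overlap, and the fall was deepest in preparation 6 (−0.95 ± 0.094, SE, adjusted p = 1.97e-05). The mean of Arc after SP TTX/NMDA was 242 CPM, still above the 23 CPM of the control. Ptgs2, the inducible cyclooxygenase, went from 11.7, 13.8, 24.9, 16 and 15.6 to 9.64, 9.53, 7.05, 10.5 and 5.64 CPM without overlap (−0.94 ± 0.17, SE, adjusted p = 0.00107). Btg2, an antiproliferative gene, fell by 0.76, Trib1 by 0.77 and the secreted matrix protein gene Ccn1 (Cyr61) by 0.62. Homer1, whose short form uncouples postsynaptic receptors, moved less, from 108, 103, 133, 112 and 127 to 88.6, 84, 104, 89 and 113 CPM (−0.28 ± 0.038, SE, adjusted p = 0.000142, adjusted p = 0.0964 without the block). Gem, a small GTPase, was the member that rose, by 0.58.

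The precursor hairpins of miR-212 and miR-132 were the small RNAs among the strongest falls. They lie next to each other on chromosome 11 and their 3p arms share a seed, so the sequences are shown from RefSeq (GRCm38.p6, plus strand), with the 3p arm in capitals in the hairpin and the seed, bases 2 to 8, in capitals in the mature form. Poly-A libraries count the primary transcript over the hairpin interval, and mature miRNA was not measured.
Mir212 hairpin, chr11:75173388-75173478: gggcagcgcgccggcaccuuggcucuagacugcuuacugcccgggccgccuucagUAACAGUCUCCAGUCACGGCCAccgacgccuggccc
mmu-miR-212-3p: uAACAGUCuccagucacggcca
Mir132 hairpin, chr11:75173682-75173747: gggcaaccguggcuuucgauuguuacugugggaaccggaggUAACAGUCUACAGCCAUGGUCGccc
mmu-miR-132-3p: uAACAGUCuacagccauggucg
Mir212 was at 2.86, 2.63, 4.02, 3.45 and 2.79 CPM after Bic 0.5 h and 1.39, 1.33, 1.01, 1.64 and 1.51 CPM after SP TTX/NMDA (−1.16 ± 0.16, SE, adjusted p = 0.000148). Mir132 was at 1.96, 2.67, 2.89, 2.3 and 2.55 and 1.66, 1.29, 0.896, 1.13 and 1.25 CPM (−1.0 ± 0.17, SE, adjusted p = 0.000799). Neither pair of groups overlapped. Both hairpins lie in introns of 1700016P03Rik on the same strand, and its exons, looked at after these values were seen, did not follow them: it was at 15.5, 22.1, 34.3, 21.3 and 25.2 CPM and then at 22.3, 27.6, 20.4, 30.6 and 26.7 CPM, a log2 fold change of 0.14 ± 0.13 (SE, adjusted p = 0.468). Without preparation 6, where it was lower, that value was 0.36 (adjusted p = 0.00265).

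Inhibitors that feed back on activity signaling gave a share of rises near that of all genes and a larger share of falls. Of 24 tested, 8 fell and 4 rose (median −0.04; 3 and 1 without the block). That is 33.3% and 16.7%, beside 17.2% and 13.3% of all genes. The falls were the MAP kinase phosphatases Dusp1 (82.4, 115, 108, 123 and 100, then 68.6, 86.4, 59.9, 94.3 and 62.7 CPM; −0.51 ± 0.067, SE, adjusted p = 0.000119), Dusp6 (−0.48), Dusp4 (−0.42) and Dusp5 (−0.34), the Ras-ERK inhibitors Spred2, Spred3 and Spry2 and the clock gene Per1. Zfp36, Zfp36l1 and Zfp36l2, a family of RNA-binding proteins that speed up decay of AU-rich mRNAs, made up 3 of the 4 rises, and the phosphatase gene Dusp10 (0.29) was the other. Zfp36l1 went from 7.26, 7.17, 7.15, 7.15 and 5.76 to 11.9, 11.7, 8.72, 11.7 and 6.69 CPM (0.56 ± 0.088, SE, adjusted p = 0.00047) and overlapped only through the later library of preparation 8. Zfp36 lost its call without the block, with DESeq2, and without preparation 1, 3 or 7.

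Among 19 tested secreted factors and neuropeptides, 5 fell and 4 rose (median 0.08; 1 and 0 without the block). That is 26.3% and 21.1%, beside 17.2% and 13.3% of all genes. Bdnf, the neurotrophin of activity-dependent plasticity and survival, was at 87, 91.4, 140, 128 and 110 CPM and then at 60.7, 70, 85.1, 93.6 and 86 CPM, lower in every preparation, with overlap between groups (−0.48 ± 0.047, SE, adjusted p = 1.95e-05, adjusted p = 0.0537 without the block). Pcsk1, a prohormone convertase, went from 68.9, 65.5, 95.6, 86.2 and 73.3 to 51.3, 46.4, 59.1, 54.6 and 56.8 CPM without overlap (−0.53 ± 0.05, SE, adjusted p = 1.6e-05). Inhba, which encodes the activin A subunit, changed by −0.30 ± 0.092, SE, adjusted p = 0.0234 and lost its call without the block (0.264), without preparation 3 or 7, and with DESeq2. After Bic 0.5 h the means of Bdnf, Inhba and Homer1 were 111, 7.8 and 117 CPM, beside 108, 7.77 and 110 CPM in the control. After SP TTX/NMDA they were 79.1, 6.38 and 95.7 CPM, below the control means. The rises were in the neuropeptides Sst (0.35 ± 0.036, SE, adjusted p = 2.56e-05), Npy, Tac1 and Cck, and all 4 lost their calls without the block.

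The study's own list of 20 shut-off genes, which it chose on libraries of this series, is not independent evidence. Of its 19 tested members 16 fell and 0 rose, with a median of −0.49 (11 and 0 without the block). Kcna1, an axonal Kv1 channel subunit that limits firing, went from 85.3, 93.9, 102, 108 and 102 to 45.6, 47.5, 54.6, 46.7 and 47.6 CPM, with separate groups (−1.02 ± 0.05, SE, adjusted p = 3.08e-07). Falls in other members ran from −1.16 for Mir212 to −0.22 for Frmd6, and Stil, Phf21b and Pim1 did not pass.

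Many ion channel and calcium handling genes fell as well. Of 29 potassium channels tested, 19 fell and 1, Kcnc2, rose (median −0.25; 12 and 0 without the block). Kcnj2, an inward rectifier that holds the resting potential, was at 15.9, 30.5, 41.6, 22.7 and 27 CPM after Bic 0.5 h and at 9.41, 12.2, 12.5, 11.4 and 6.54 CPM after SP TTX/NMDA (−1.38 ± 0.13, SE, adjusted p = 1.62e-05). It had the deepest fall of any protein-coding gene that met the naming rule, and its mean was 10.4 ± 2.49 CPM beside 10.4 ± 2.18 CPM in the untreated control (SD, n = 5). Of 13 tested genes for calcium pumps, exchangers and the mitochondrial uniporter, 9 fell and 0 rose (median −0.22; 5 and 0 without the block). Slc8a1, the sodium-calcium exchanger NCX1, went from 86.4, 112, 84.1, 116 and 112 to 54.3, 56, 56.3, 52.1 and 60.8 CPM (−0.86 ± 0.069, SE, adjusted p = 6.65e-06), and Atp2b3, a plasma membrane calcium pump, from 137, 132, 119, 131 and 120 to 93.7, 86.9, 80.8, 75.2 and 86.4 CPM (−0.59 ± 0.046, SE, adjusted p = 5.53e-06). Both pairs of groups were separate. Atp2b1 fell by 0.40 and the exchanger gene Slc24a2 by 0.48, while the uniporter gene Mcu, at −0.08, was not called.

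Postsynaptic scaffolds and the NMDA and GABA-A receptor lists leaned the same way, whereas AMPA receptor genes gave calls in both directions. All 14 tested scaffolds had a negative log2 fold change and 12 of them fell (median −0.28; 8 without the block), led by Shank3 (404, 343, 304, 382 and 308, then 263, 233, 212, 227 and 267 CPM; −0.52 ± 0.059, SE, adjusted p = 4.27e-05), Dlgap2, Dlg2 (the PSD-93 gene) and Homer2. Of 6 tested NMDA receptor subunits 3 fell and 0 rose (median −0.14; 1 without the block): Grin1, the obligatory subunit (−0.23 ± 0.042, SE, adjusted p = 0.00123), Grin2a (−0.34 ± 0.067, SE, adjusted p = 0.00193) and Grin2b. Grin2b was at 788, 859, 480, 727 and 743 and then 600, 516, 605, 480 and 612 CPM, higher in preparation 6 (−0.33 ± 0.11, SE, adjusted p = 0.0314), and its call was lost without the block, with DESeq2 and without preparation 1, 3 or 7. Of 12 GABA-A receptor subunits 7 fell and 2 rose (median −0.13; 4 and 0 without the block), with Gabrb1 at −0.52. Of 11 AMPA receptor subunits and auxiliary proteins 3 fell, all by less than 0.2, and 4 rose (median −0.03; 0 and 1 without the block), among them Cacng2, which encodes stargazin, and Gria4.

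The 10 largest falls among protein-coding genes by the naming rule were Kcnj2, Dcc, Nkain3, Kcna1, C2cd4b, Slit3, Arc, Ptgs2, Adamts3 and Stxbp5l. Dcc, the netrin receptor, went from 35.2, 50.6, 31.2, 46.6 and 33.8 to 16.6, 18.7, 16.2, 13.2 and 17.6 CPM (−1.26 ± 0.11, SE, adjusted p = 8.48e-06) and Slit3, an axon guidance ligand, from 139, 130, 107, 159 and 100 to 76.6, 57.3, 59.7, 53.4 and 75.4 CPM (−0.97 ± 0.11, SE, adjusted p = 5.86e-05). Both stood near their control level before the intervention: the mean of Slit3 was 110 ± 32 CPM in the control and 127 ± 23.9 CPM after Bic 0.5 h, and that of Dcc 37.6 ± 12.3 and 39.5 ± 8.56 CPM (SD, n = 5). C2cd4b went from 5.22, 4.92, 4.83, 7.89 and 3.15 to 2.51, 2.54, 1.44, 4.37 and 1.84 CPM. The naming rule itself requires a fall in all 5 preparations. All 10 calls held without the block and in every fit that left out a preparation.

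The 10 largest rises by the same rule were Kcne4, Thbd, Apold1, Inmt, Iqck, Fmo1, Crip3, Ajuba, Atp6v0d2 and Cyp39a1, and all had low levels. Kcne4, a potassium channel accessory subunit, went from 0.571, 1.5, 1.63, 0.963 and 1.07 to 3.24, 4.18, 3, 4.37 and 1.53 CPM, with overlap only through the later library of preparation 8 (1.52 ± 0.21, SE, adjusted p = 0.000195). Thbd, which encodes the endothelial anticoagulant receptor thrombomodulin, went from 4.16, 5.58, 2.89, 3.19 and 1.19 to 6.25, 11.5, 4.75, 7.57 and 1.79 CPM, with wide differences between preparations (0.94 ± 0.11, SE, adjusted p = 5.65e-05, adjusted p = 0.212 without the block). Apold1, an early gene of vascular cells, went from 3.51, 3.24, 3.64, 3.11 and 3.27 to 5.09, 7.52, 6.27, 7.33 and 4.55 CPM without overlap (0.91 ± 0.12, SE, adjusted p = 0.000138). Kcne4 also rose with continued Bic, by 1.38 in Bic 1 h against Bic 0.5 h (adjusted p = 0.00109). Its level with TTX/NMDA differed from Bic 1 h by 0.11 (adjusted p = 0.549). For Apold1 these values were 0.60 (adjusted p = 0.00327) and 0.29 (adjusted p = 0.0483). For Thbd they were 0.42 (adjusted p = 0.0796) and 0.49 (adjusted p = 0.00499). The other 7 had means of 0.714 to 1.00 CPM before and 1.27 to 1.75 CPM after, with log2 fold changes from 0.91 for Inmt to 0.69 for Cyp39a1. Thbd, Inmt, Fmo1, Ajuba and Atp6v0d2 lost their calls without the block, Atp6v0d2 and Cyp39a1 with DESeq2, and Iqck, Fmo1 and Cyp39a1 without preparation 7, as did Atp6v0d2 without preparation 3 or 6.

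Promoters of 2 immediate early factors that fell and 2 genes that rose are shown to let their cAMP response elements be compared, from 250 bases before to 50 after the annotated start (RefSeq, GRCm38.p6). Both strands were searched for the full element TGACGTCA, its core TGACG, which the full element contains, the AP-1 motif TGANTCA and the CArG box bound by SRF. Capitals mark the core, the only motif found in these windows.
Fos, chr12:85473640-85473939, plus strand: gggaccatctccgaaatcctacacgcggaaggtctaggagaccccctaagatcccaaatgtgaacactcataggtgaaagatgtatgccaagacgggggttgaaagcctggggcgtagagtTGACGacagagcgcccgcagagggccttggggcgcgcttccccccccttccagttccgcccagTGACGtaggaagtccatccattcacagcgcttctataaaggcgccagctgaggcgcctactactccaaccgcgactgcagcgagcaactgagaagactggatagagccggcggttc
Npas4, chr19:4989922-4990221, minus strand: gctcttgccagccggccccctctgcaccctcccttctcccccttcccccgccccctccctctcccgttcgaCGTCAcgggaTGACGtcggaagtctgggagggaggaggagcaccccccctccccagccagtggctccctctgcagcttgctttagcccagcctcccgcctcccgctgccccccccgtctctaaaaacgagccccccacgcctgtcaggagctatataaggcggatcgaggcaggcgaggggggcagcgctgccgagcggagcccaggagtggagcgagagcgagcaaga
Kcne4, chr1:78816661-78816960, plus strand: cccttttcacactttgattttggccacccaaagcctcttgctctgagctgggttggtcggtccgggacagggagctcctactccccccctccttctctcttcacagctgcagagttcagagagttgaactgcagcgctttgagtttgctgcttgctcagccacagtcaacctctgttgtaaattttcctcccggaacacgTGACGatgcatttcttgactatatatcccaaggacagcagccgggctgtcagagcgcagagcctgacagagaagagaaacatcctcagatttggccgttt
Apold1, chr6:134981751-134982050, plus strand: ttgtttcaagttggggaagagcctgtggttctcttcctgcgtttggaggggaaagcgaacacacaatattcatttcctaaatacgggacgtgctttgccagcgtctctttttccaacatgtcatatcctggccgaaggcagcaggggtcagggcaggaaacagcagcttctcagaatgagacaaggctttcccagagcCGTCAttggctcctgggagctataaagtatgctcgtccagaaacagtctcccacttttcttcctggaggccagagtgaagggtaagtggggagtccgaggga
Fos held the core 129 and 66 bases before the start, Npas4 179 and 169 bases before it, Kcne4 50 and Apold1 52. The core is common: it was in 29.6% of promoters of genes called lower, 29.2% of those called higher, 29.5% of those of all genes tested and 20.8% of all 32851 promoters in the table. The full element was in 3.17%, 2.65%, 2.91% and 1.79%, the AP-1 motif in 4.48%, 5.65%, 5.18% and 7.81%, and the CArG box in 1.59%, 1.52%, 1.34% and 1.63%. Genes called lower and genes called higher thus differed by under 2 percentage points for each motif. Promoters of 11724 tested genes were matched by symbol, and Arc, Kcna1, Dcc, Nkain3 and Thbd were not matched.

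Some noncoding transcripts moved against the gene they lie in. Gm19938, a noncoding gene on the minus strand at chr1:3647309-3658904, had the largest rise among noncoding genes by the naming rule, from 0.408, 0.375, 0.69, 0.519 and 0.653 to 1.89, 1.59, 2.34, 2.04 and 1.99 CPM without overlap (1.89 ± 0.18, SE, adjusted p = 1.6e-05). It lies in an intron of Xkr4 (chr1:3205901-3671498, same strand), which encodes a scramblase-related membrane protein and, looked at after that value was seen, fell from 166, 202, 144, 189 and 195 to 119, 110, 114, 107 and 122 CPM (−0.64 ± 0.066, SE, adjusted p = 2.39e-05). Reads that overlapped several genes were left uncounted by the authors, so the values of the pair come from different reads. Gm20045 (1.62), Gm44562 (1.05; antisense to Ube3a, which fell by 0.15) and Gm21781 (0.98) were the next rises, and Gm49678 (−1.29), Mir212, Gm45159 (−1.09) and 5330416C01Rik (−1.04) the falls. Gm45159 overlaps an exon of Dlg2 on the same strand, so its level is uncertain. Of 190 tested noncoding genes inside a protein-coding gene on the same strand, 26 rose and 4 fell (median 0.18). Their share of rises lay near that of all genes. Of the 63 whose host fell, 11 rose and 2 fell (median 0.17). On the opposite strand, 14 of 178 rose and 3 fell (median 0.07). Where the opposite-strand host fell, 4 of 61 rose and 1 fell (median 0.049). Of 1629 noncoding genes outside any protein-coding gene 130 rose and 59 fell (median 0.095), beside 13.3% up and 17.2% down over all genes. The class labelled TEC in the annotation, transcripts still to be checked experimentally, had 40 rises (14.1%) and 5 falls (1.76%) among 284, so its share of rises lay near that of all genes.

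Short genes leaned upward and long genes downward. Among protein-coding genes with a mean of at least 1 CPM, those spanning up to 5 kb from start to end had a median log2 fold change of 0.13, with 36.3% called higher and 5.24% lower (n = 1221). These were 443 and 64 genes, and without the block 56 and 18. The median was lower in each class of longer genes, down to −0.21 for those over 500 kb, of which 7.77% were higher and 55.8% lower (n = 206). In that class 16 genes were higher and 115 lower, and without the block 1 and 63. Over the 5 preparations the median ran from 0.071 to 0.128 in the shortest and from −0.247 to −0.078 in the longest class, computed on log2(CPM + 0.5). Mature length moved with it: within genes spanning up to 20 kb the median was 0.13 for exon lengths up to 3 kb and 0.003 for those over 6 kb, and within exon lengths over 6 kb it was 0.003 for spans up to 20 kb and −0.13 for spans over 100 kb. In TTX alone and in Bic 1 h against Bic 0.5 h, the longest class had medians of −0.013 and −0.015. Against SP TTX itself the medians ran from 0.107 in the shortest to −0.158 in the longest class, and against Bic 1 h from 0.085 to −0.174. The part of length in the list results was not tested.

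**Figure D3:**
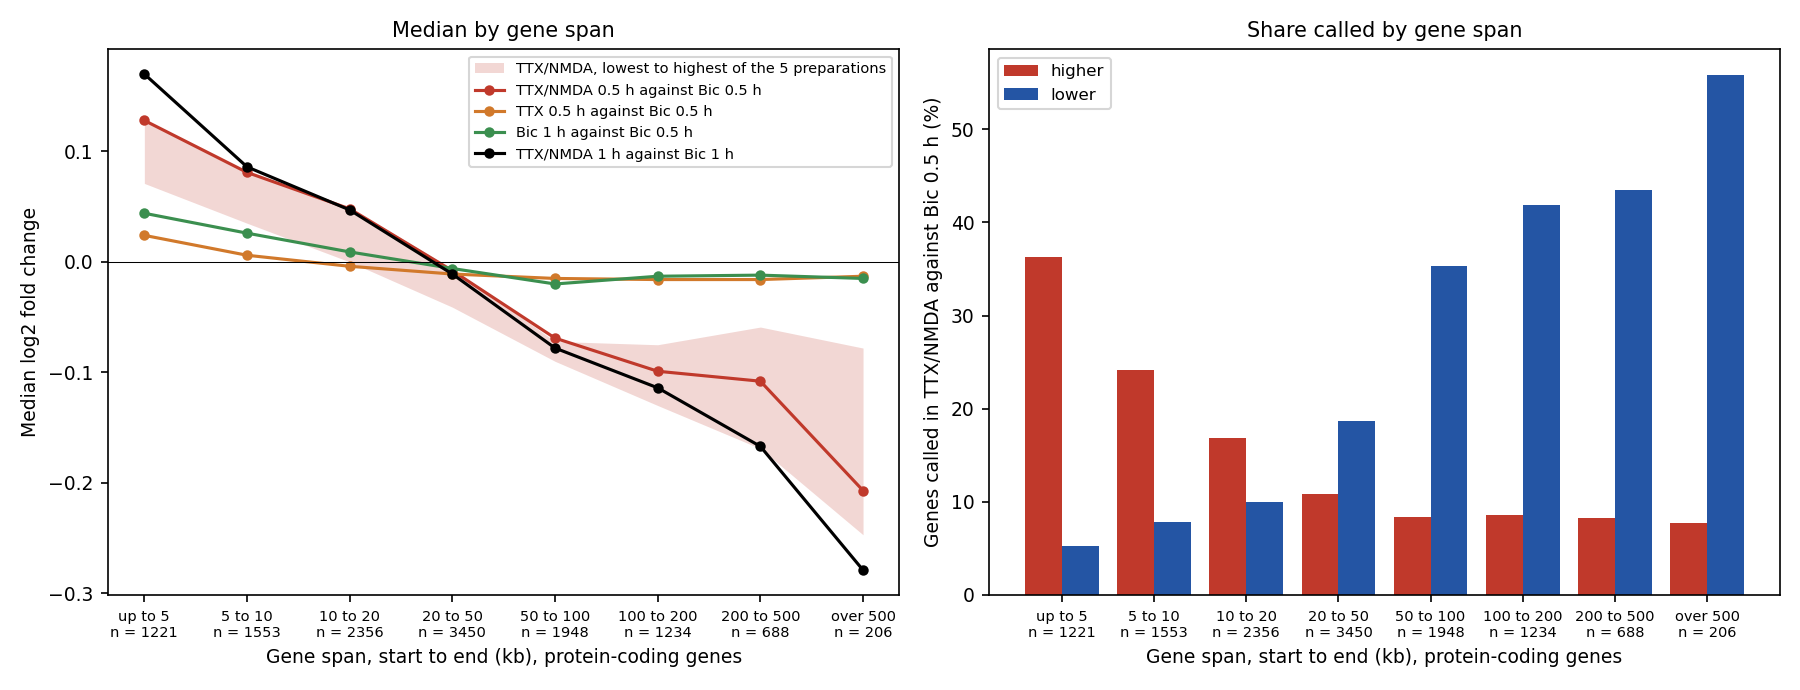
Left, median log2 fold change by gene span (kb) of protein-coding genes in 4 comparisons; the band runs from the lowest to the highest of the 5 preparations for TTX/NMDA, computed on log2(CPM + 0.5). Right, share of genes called higher (red) or lower (blue) after SP TTX/NMDA against Bic 0.5 h (%). The red median line falls from 0.13 to −0.21 with span, the black line of the long protocol from 0.17 to −0.28, and the lines of TTX alone and Bic 1 h stay between −0.02 and 0.044.

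Stress and death genes gave calls in both directions, which are to be read beside the 13.3% of all genes that rose and the 17.2% that fell. The shares were 31.2% and 12.5% for integrated stress response genes, 35.7% and 7.14% for p53 and Gadd45 genes and 9.09% and 36.4% for FoxO genes. They were 15.4% and 0% for heat shock, 7.69% and 0% for endoplasmic reticulum, 14.3% and 14.3% for Bcl2 family and 7.69% and 15.4% for calcineurin and NFAT genes, none of them clearly above those of all genes. Of 16 integrated stress response genes 5 rose and 2 fell (median 0.10), with Nupr1 at 0.43, Phgdh at 0.28 and Ddit3, the CHOP gene, at 0.26, against Atf3 at −0.30. Ddit3 lost its call without preparation 1, 6 or 8. Of 13 heat shock genes 2 rose and 0 fell (median 0.03), Bag3 from 3.59, 3.85, 2.32, 3.48 and 2.38 to 4.55, 5.85, 3.97, 5.39 and 3.52 CPM (0.59 ± 0.10, SE, adjusted p = 0.000606) and Hspe1 by 0.27, and of 13 endoplasmic reticulum chaperones and stress genes 1, Creld2, rose and 0 fell (median 0.05), a call lost without preparation 3, 7 or 8. Of 14 p53 and Gadd45 genes 5 rose, among them Bax (0.27 ± 0.048, SE, adjusted p = 0.000996), Phlda3, Cdkn1a and Trp53inp1, and 1, Gadd45b, fell (median 0.17), with the call of Trp53inp1 lost without preparation 1, 3 or 7. Of 14 Bcl2 family genes 2 rose (Bax and Bak1) and 2 fell (Hrk and Bcl2l1, the Bcl-xL gene, at −0.12; median 0.09), with the call of Bak1 lost without preparation 3 or 6 and that of Bcl2l1 without 1, 6 or 7. Of 11 FoxO factors and linked genes 4 fell, with Klf9 at −0.38 and Foxo1 at −0.26, and 1, Txnip, rose (median −0.05), the last not without preparation 1, 3, 6 or 7. Of 13 calcineurin and NFAT genes 1, Rcan2, rose and 2, Cabin1 and Ppp3cb, fell (median 0.01), Cabin1 not without preparation 1, 3 or 7 and Ppp3cb not without 1, 3 or 6. None of these lists kept more than 1 call without the block.

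Redox and mitochondrial transcripts gave rises and no falls. Of 15 redox defence genes 7 rose and 0 fell (median 0.09; 1 without the block), Hmox1, heme oxygenase 1, from 18.8, 22, 19.9, 21.3 and 22.2 to 23.4, 26.6, 28.4, 26.5 and 27.6 CPM without overlap (0.35 ± 0.05, SE, adjusted p = 0.000221), and Gpx1, Sod1, Gpx4, Txn1, Prdx1 and Nfe2l2 by 0.13 to 0.36. Nfe2l2, the main transcription factor of that response, was higher in 3 of 5 preparations and lost its call without preparation 1, 3 or 7. Of the 13 mitochondrially encoded mRNAs, 6 had no counted read in any of the 10 libraries. Of the 7 that could be tested, 5 rose (median 0.31; 0 without the block). mt-Nd4, a complex I subunit, was at 458, 493, 563, 557 and 456 and then 652, 622, 790, 901 and 441 CPM (0.40 ± 0.075, SE, adjusted p = 0.0014, adjusted p = 0.0872 without the block), higher in all but preparation 8. Reads that map to several places were not counted, so levels of genes with nuclear copies are uncertain.

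Of 14 cholesterol synthesis and SREBP target genes 8 fell and 1 rose (median −0.15; 2 and 0 without the block). The rise was Srebf1 (0.30 ± 0.051, SE, adjusted p = 0.000736), and Srebf2, the main activator of the pathway, fell by 0.27, with Idi1, an isoprenoid synthesis enzyme, at −0.34. Of 21 glucose transporters and glycolytic enzymes 4 rose and 3 fell (19% and 14.3%, near the 13.3% and 17.2% of all genes; median −0.0006; 0 and 0 without the block), where Slc2a1 lost its call without preparation 7, and of 13 actin and SRF-linked genes 1 rose and 4 fell (median −0.02; 0 and 1 without the block), with Mrtfb, an SRF coactivator, at −0.43 and Fhl2 not called without preparation 1, 6 or 7.

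Notch and Id genes, which keep neural progenitors and glia undifferentiated, gave rises only: 11 of 16 rose and 0 fell, with a median of 0.32 (0 and 0 without the block). Notch1 was at 14.1, 14, 8.6, 15.2 and 8.61 and then 21, 17.2, 13, 22 and 10.8 CPM (0.47 ± 0.063, SE, adjusted p = 0.000154), higher in each preparation although the groups overlapped. Notch2, Notch3, Jag1, Hes1, Id3 and Id1 gave 0.36 to 0.44, and Hes5 at −0.33 and Hey2 at −0.14 were not called. Id1 was higher in 3 of 5 preparations and lost its call without preparation 1, 7 or 8. Glial markers moved with these genes, as given next, and their part in it was not tested.

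Most markers of excitatory neurons fell, while several of other cells rose. All 8 markers of excitatory neurons had a negative value and 7 fell (median −0.36; 5 without the block), and their summed level went from 2450 to 2880 CPM down to 1610 to 2090 CPM. Camk2a, the abundant kinase of excitatory synapses, was at 1230, 1040, 1080, 1080 and 1120 and then 800, 632, 672, 584 and 788 CPM (−0.68 ± 0.047, SE, adjusted p = 4.08e-06), and Prox1, the marker of dentate granule cells, went from 45, 62.9, 63.5, 46.3 and 49.3 to 24.7, 39.4, 43.7, 31.9 and 16.5 CPM (−0.81 ± 0.11, SE, adjusted p = 0.000174). Of 6 pan-neuronal markers 1, Map2, fell (−0.33 ± 0.04, SE, adjusted p = 7.73e-05; median 0.0006), and Snap25, Rbfox3, Tubb3, Stmn2 and Syt1 lay between −0.04 and 0.07 and were not called, with sums of 7090 to 7520 and then 6680 to 7160 CPM. Of 8 markers of GABAergic neurons 6 rose and 0 fell (median 0.22; 0 without the block), with Gad1 from 904, 859, 943, 927 and 749 to 994, 962, 1180, 1170 and 850 CPM (0.24 ± 0.037, SE, adjusted p = 0.000415) and sums of 1550 to 2070 and then 1780 to 2590 CPM. In bulk RNA, fewer cells of a type and less RNA per cell cannot be told apart.

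Astrocyte markers gave 5 rises and 1 fall among 9 (median 0.31; 1 and 1 without the block). Gja1 lost its call without preparation 7. Slc1a3, the glutamate transporter GLAST, went from 178, 192, 151, 205 and 175 to 244, 265, 197, 314 and 177 CPM (0.40 ± 0.063, SE, adjusted p = 0.000459), and S100b rose by 0.59, whereas Slc1a2, the transporter GLT-1, fell by 0.32 and Gfap (0.18) and Aqp4 (0.26) were not called. The summed astrocyte level was 1150 to 1260 CPM and then 972 to 1520 CPM. Of 7 tested oligodendrocyte lineage markers 4 rose and 0 fell (median 0.36), namely Pdgfra and Cspg4, which mark precursors, with Olig2 and Olig1, while Mbp of mature cells was not called and Mog and Sox10 were too low to test, and the sum was 124 to 196 and then 117 to 231 CPM. Of 7 vascular and fibroblast markers 5 rose and 0 fell (median 0.28), with sums of 68.8 to 147 and 76.5 to 193 CPM. Of 6 microglia markers 1, C1qb, rose (16.7%, near the 13.3% of all genes), with sums of 6.29 to 8.71 and 7.02 to 10.9 CPM. P2ry12 and Itgam were too low to test. Cspg4 lost its call without preparation 1 or 7 and Pdgfrb without 3 or 7. The part of these markers in the other results was not tested. No call in these last 3 lists held without the block.

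**Figure D4:**
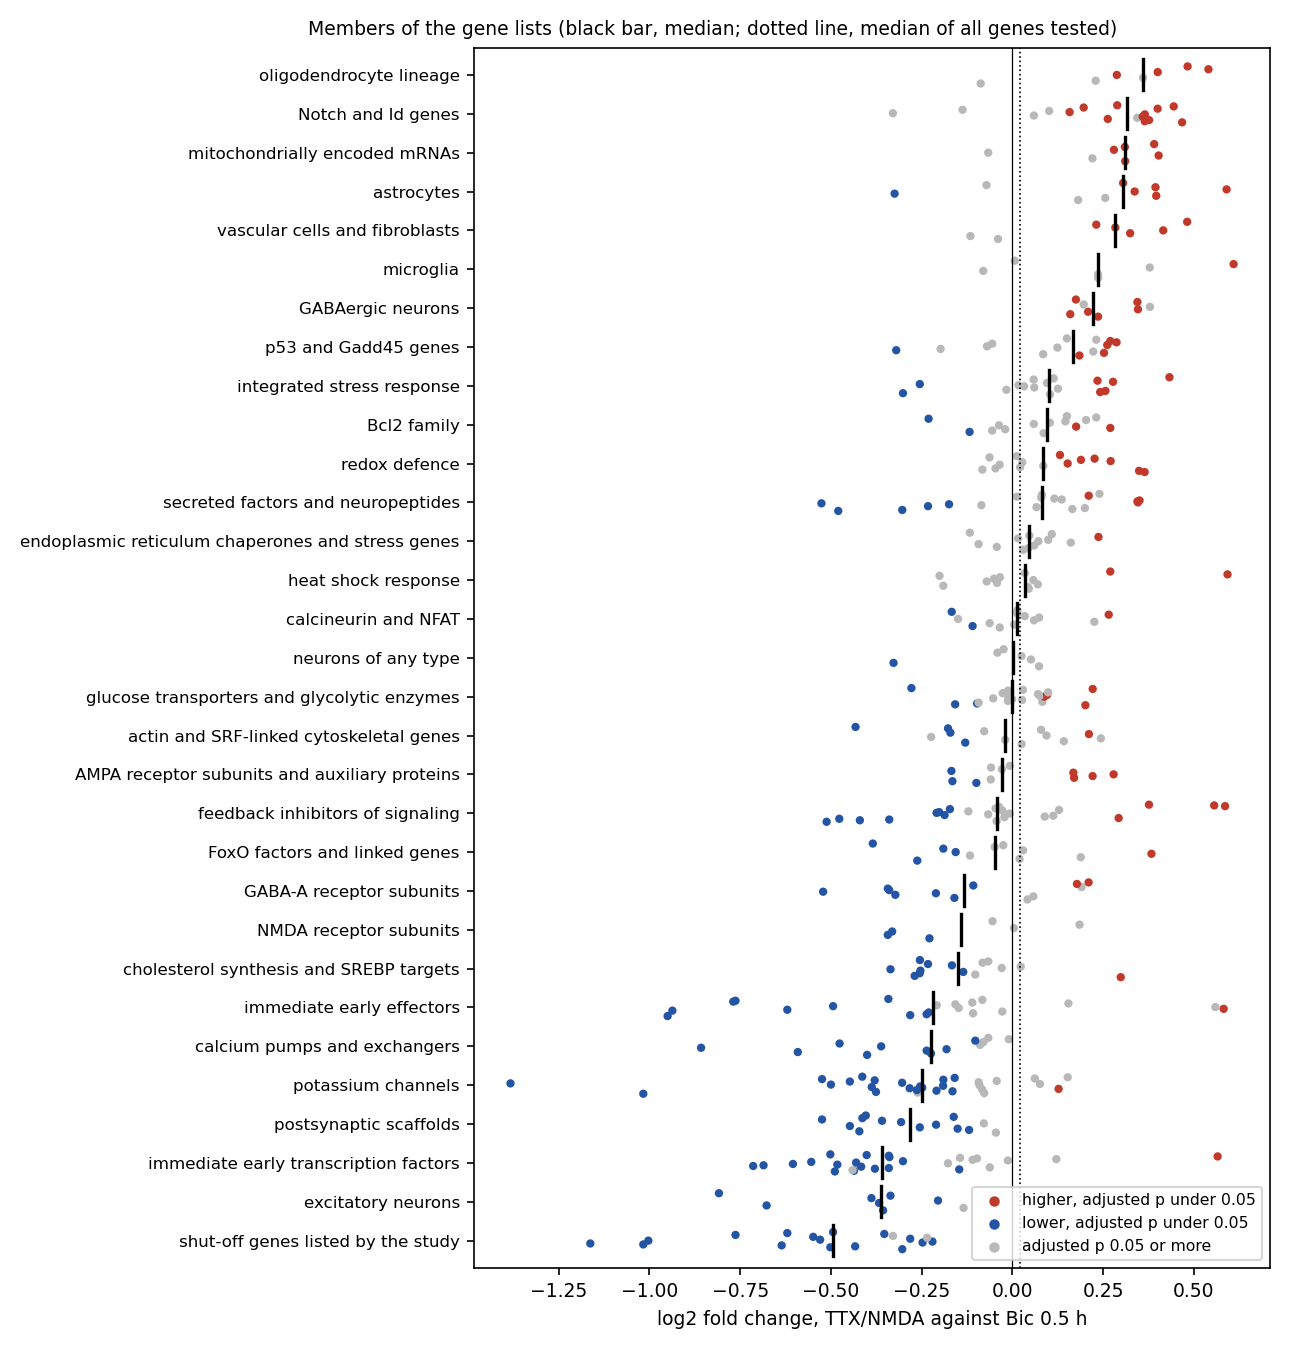
Log2 fold change (SP TTX/NMDA against Bic 0.5 h, x axis) of every tested member of 31 gene lists (rows, ordered by median); red and blue points passed the test as higher and lower, grey points did not, black bars are list medians and the dotted line is the median of all genes. Lists from the study's shut-off genes to calcium pumps sit left of 0, and oligodendrocyte, Notch and Id, mitochondrial and astrocyte lists sit right of it.

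The same 0.5 h without NMDA looked different. SP TTX against Bic 0.5 h called 91 genes higher and 8 lower among 15766 (0.577% and 0.0507%), and Bic 1 h against Bic 0.5 h called 242 higher and 51 lower among 15440 (1.57% and 0.33%). These comparisons share the Bic 0.5 h libraries with the main one, so their values are only set side by side. The immediate early factors had a median of −0.36 with TTX/NMDA, 0.51 with TTX and 0.99 with continued Bic. Mean CPM of Egr2 was 32.4 at 0.5 h, and 19.5 with TTX/NMDA, 76.8 with TTX and 86.5 with continued Bic. For Bdnf these means were 111, 79.1, 163 and 175 CPM. Kcnj2 stood at 27.5, 10.4, 29.1 and 34.4 CPM, so each of these 3 genes had its lowest mean of the 4 arms with NMDA present. Potassium channels, calcium pumps and scaffolds had medians of −0.02, 0.01 and −0.04 with TTX and −0.01, 0.01 and 0.01 with continued Bic.

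The difference between the 2 interventions was tested directly. SP TTX/NMDA against SP TTX called 921 genes higher and 1630 lower among 16438 (5.6% and 9.92%; 345 and 1063, or 2.2% and 6.77%, without the block, and 292 and 836 without preparation 1, 1733 and 2142 without preparation 6). Lowest against TTX among protein-coding genes by the naming rule were Ptgs2 (−2.05, adjusted p = 9.41e-08), Fosl1 (−1.99, adjusted p = 2.04e-05), Egr2 (−1.97, adjusted p = 8.32e-07), Tiparp (−1.95, adjusted p = 4.59e-08) and Fbxo33 (−1.85, adjusted p = 4.59e-08). For Tiparp, a poly(ADP-ribose) polymerase gene, the step from Bic 0.5 h was −0.083 with TTX/NMDA (adjusted p = 0.537) and 1.87 with TTX: it stood at 13.1, 19.9, 27.6, 19.3 and 25.9 CPM, then at 14.7, 20.4, 22.1, 23 and 18.2 CPM with TTX/NMDA, and reached a mean of 76.8 CPM with TTX. Fbxo33 fell by 0.30 with TTX/NMDA and had means at 0.5 h, with TTX/NMDA and with TTX of 41.3, 33.2 and 121 CPM. The protein-coding genes most above TTX by the same rule were Ptp4a1 (1.15, adjusted p = 0.00213), Tnfrsf25 (1.11, adjusted p = 0.000372), Crip3 (1.04, adjusted p = 0.0105), Slc39a2 (1.00, adjusted p = 0.000606) and Kcne4 (0.94, adjusted p = 0.000707). Ptp4a1 was below Bic 0.5 h with TTX (means of 2.25 and 0.783 CPM) and nearer to it with TTX/NMDA (1.67 CPM). Nr4a1 and Atf3, at −0.18 and −0.30 from Bic 0.5 h to TTX/NMDA, were −1.08 and −1.51 against TTX. Against Bic 1 h, 1751 genes were higher and 2448 lower among 16175 (10.8% and 15.1%; 320 and 1162, or 2.07% and 7.53%, without the block, and 848 and 1630 without preparation 6).

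Genes that Bic itself raises were defined from the 1 h Bic and control libraries, neither of which enters the main comparison. Of 454 genes called higher after 1 h of Bic than in the control (2.85% of 15923 tested) 450 were tested, and 60 rose and 134 fell with TTX/NMDA (13.3% and 29.8%, beside 13.3% and 17.2% of all genes; 8 and 45 without the block). Their median was −0.05, beside 0.15 with TTX and 0.34 with continued Bic, where the 1 h Bic libraries that chose the list enter, and their summed level went from 28000 to 30700 CPM down to 24700 to 27500 CPM. Of 180 tested genes among the 181 (1.14%) that 1 h of Bic lowered, 17 rose and 21 fell (median −0.01; 5 and 1 without the block).

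**Figure D5:**
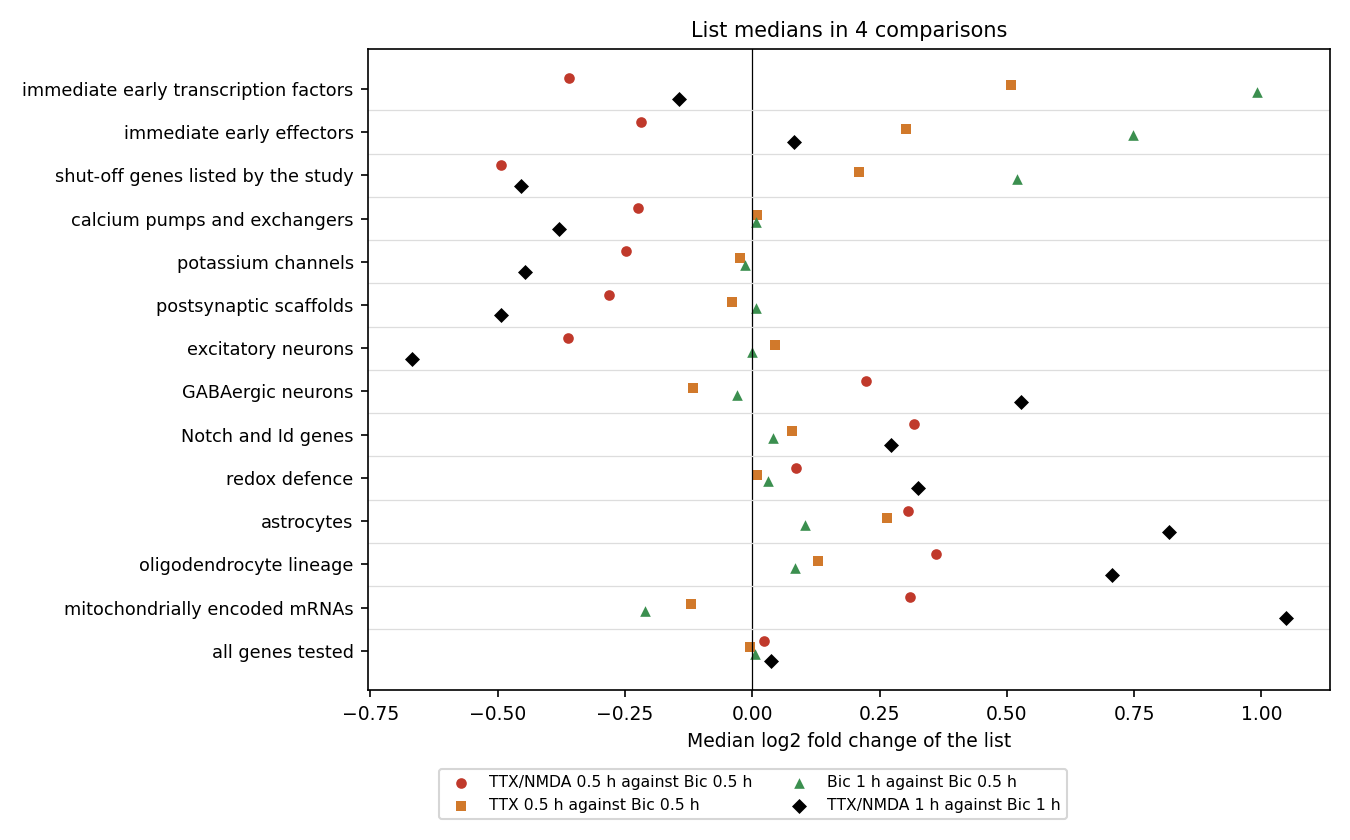
Median log2 fold change (x axis) of 13 gene lists and of all genes tested (rows) in 4 comparisons (symbols); the red, orange and green comparisons share the Bic 0.5 h libraries, and the black one shares none with the red. The immediate early lists are left of 0 with TTX/NMDA for 0.5 h and right of 0 with TTX or with continued Bic, while scaffolds, potassium channels and excitatory neuron markers are at −0.25 or below with TTX/NMDA and between −0.04 and 0.044 with TTX or continued Bic.

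The long protocol applied TTX/NMDA for 1 h after 1 h of Bic and gives the same before and after comparison in other libraries of the same preparations. There, 4713 genes were higher and 3890 lower among 16850 (28% and 23.1%). Step by step the lists of channels, pumps, scaffolds and excitatory markers had medians of −0.25, −0.22, −0.28 and −0.36 in the short and −0.45, −0.38, −0.49 and −0.67 in the long protocol, and mitochondrial mRNAs 0.31 and 1.05. Immediate early factors had −0.36 and −0.14, and effectors −0.22 and 0.08. The difference between the 2 steps, tested per gene in 1 fit of the 4 groups, was called for 1226 genes as more positive and 928 as more negative in the short protocol among 16447 (7.45% and 5.64%; 32 and 38, or 0.2% and 0.237%, without the block, and 402 and 333 without preparation 1). Fos differed (−0.52, adjusted p = 0.022), at −0.49 in the short and 0.05 in the long protocol, and so did Homer1 (−0.61, adjusted p = 0.00976) and Slc8a1 (0.46, adjusted p = 0.0461), whereas for Arc (−0.30, adjusted p = 0.185), Bdnf (−0.067, adjusted p = 0.746) and Npas4 (−0.058, adjusted p = 0.825) the difference was not called. Among the most different genes, Rorb, a nuclear receptor, changed by 0.29 in the short (adjusted p = 0.0796) and 2.20 in the long protocol (−1.85, adjusted p = 3.12e-05), and Rfx4, an RFX family factor, by 0.38 and 1.76 (−1.38, adjusted p = 2.65e-05).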

How the data were processed

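Poly-A RNA from 45 cultures (9 conditions, 5 preparations each) was sequenced with a directional kit as single-end reads. Per the labels and the study's methods, the authors demultiplexed with bcl2fastq 2.20.0.422, aligned to GRCm38 with STAR 2.5.4b and counted reads per Ensembl gene with featureCounts 1.6.5, where multi-mapping reads and reads shared by overlapping genes were left uncounted. The deposited values are raw counts. Here, genes passing filterByExpr were fitted with edgeR 4.0.16 (R 4.3.3; TMM factors, quasi-likelihood F test, preparation as a replicate block) on the libraries compared, with Benjamini-Hochberg adjustment over all genes tested and a threshold of 0.05. The study used DESeq2 and its methods name no block. The same preparation underlies same-numbered libraries per the labels. Their deviations from the group means correlated at 0.54 to 0.64 over 13532 expressed genes in the TTX/NMDA and Bic 0.5 h libraries. The mean for other pairs, −0.14, is largely set by taking deviations from the group means, so it is no independent reference. In the other comparisons the correlation of same-numbered libraries ran from 0.18 to 0.68, except TTX/NMDA against TTX, with −0.01 (preparation 6) to 0.73. Alternatives were no block, DESeq2 1.42.0, RLE factors, all genes with a read, 1 fit over 45 libraries, thinning to 12338915 counts and leaving out each preparation. On simulated data for this step (15953 genes), 82% of 1.25-fold, 94% of 1.5-fold, 90% of 2-fold and 98% of 4-fold changes were called, and 4.74% of 190 calls were false. The counts were drawn from the blocked model fitted to these 10 libraries, with far fewer genes changed than were called here. They thus describe the fit under its own assumptions only. CPM use TMM factors over all libraries.

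The genes and 31 lists were chosen with earlier results of these data known. Named were the 10 protein-coding and 4 other genes with the largest called change in each direction, moving alike in all preparations with a mean of at least 1 CPM, up to 4 members with the largest called change per list, the example genes of the study, and, under the same conditions, the 5 protein-coding genes most different from TTX in each direction and between protocols.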

Additional observations from a re-analysis of the deposited data

Results flagged for a closer look

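Preparation 6 stood apart from the other 4 preparations in the log2 ratio of SP TTX/NMDA to Bic 0.5 h, computed on log2(CPM + 0.5), for 5 of the named genes. Arc was at −1.589 there and at −0.891 to −0.684 in the others, Mir212 at −1.578 and at −0.885 to −0.713. Egr2 gave −1.444 beside −0.679 to −0.421, and Egr3 −1.138 beside −0.632 to −0.516. Hmox1 was at 0.504 beside 0.267 to 0.312, so these are larger changes in the direction of the group. Chance alone sets apart about 1 in 20 groups of 5, and 146 genes were looked at.

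Given here are the 5 protein-coding genes that met the naming rule and differed most between the short and the long TTX/NMDA step. The difference is the interaction term of the blocked fit. Rorb differed by −1.855 (0.29 in the short and 2.20 in the long step), Ptgds, prostaglandin D synthase, by −1.577 (−0.53 and 0.99), and Rfx4 by −1.382 (0.38 and 1.76). Chrm5, a muscarinic receptor gene, differed by 1.354 (−0.75 and −2.05) and Castor1, an arginine sensor gene, by −1.27 (−0.086 and 1.22). Ptgds had the widest spread of these after Bic 0.5 h (mean 3.63 ± 3.78 CPM, SD, n = 5).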

How the results depend on the processing

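Without the replicate block, TTX/NMDA against Bic 0.5 h called 201 genes higher and 902 lower, and over all genes with a read 194 and 798 (DESeq2 there 330 and 1388); all 1103 calls without the block were also made with it. With the block, DESeq2 called 1111 higher and 1 fit over all 45 libraries 1224 higher. Leaving out 1 preparation gave 1284 to 2228 higher and 2044 to 2763 lower. For TTX against Bic 0.5 h the counts were 48 and 4 without the block, 202 and 39 over all genes with a read and the block, and 54 to 137 and 4 to 11 with a preparation left out. For Bic 1 h against Bic 0.5 h they were 146 and 5, 377 and 131, and 166 to 244 and 8 to 62, with 31 lower by DESeq2 and 13 lower without the block over all genes with a read. For TTX/NMDA against TTX they were 345 and 1063 without the block, 308 and 1071 without the block over all genes with a read, 585 higher by DESeq2 with it, and 292 to 1733 and 836 to 2142 with a preparation left out; against Bic 1 h, in the same order, 320 and 1162, 280 and 1071, 1031 higher, and 848 to 2448 and 1630 to 2929. The short against long difference gave 32 and 38 without the block, 94 and 45 without it over all genes with a read, and 402 to 974 and 333 to 771 with a preparation left out. Over all genes with a read and with the block, these 3 comparisons gave 1171 and 1932, 2063 and 2288, and 1674 and 947. Of 146 named genes, 77 lost their call without the block, 15 with DESeq2, 27 in the fit over 45 libraries, 7 after thinning and 0 with RLE factors. With a preparation left out, 3 genes that were not called changed sign: Tiparp ran from −0.18 to 0.040 (above 0 without preparation 8), Ptgds from −0.79 to 0.12 (without preparation 3) and Castor1 from −0.43 to 0.19 (0.12 without preparation 6, 0.19 without 8). The cause of these differences was not tested. The shallowest library, with 12338915 counts, limits genes near 1 CPM most.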
